A study of Homo sapiens with 12 samples.

Results

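A set of 9 genes was followed in Jurkat and Molt-4, established human lines of T-cell acute lymphoblastic leukaemia (T-ALL), with and without chidamide. They are TAL1, LYL1, LMO1, LMO2, TLX1, TLX3, MYB and MEF2C, transcription factor or cofactor genes that are activated in subtypes of T-ALL, and LDB1, the adaptor through which LMO proteins work. They were chosen by symbol, and 9 of the 25146 rows of the deposited expression table belong to them. The 4 groups of 3 libraries were Jurkat with chidamide, Jurkat untreated, Molt-4 with chidamide and Molt-4 untreated. Chidamide (tucidinostat) is a benzamide inhibitor of class I histone deacetylases and HDAC10. Treatment was at 2 µM. The protocol names 48 h, but the treated samples are labelled 48 h (replicate 1), 49 h (replicate 2) and 50 h (replicate 3), which leaves hour and replicate inseparable. Library names carry the letters J and M, read here as Jurkat and Molt-4, the lines that the growth protocol names; culture identity was not checked. Each line is the descendant of 1 leukaemia, so a contrast of lines compares 2 leukaemias at most. It cannot be told apart from a difference of culture or preparation.

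In T-ALL, one of a few transcription factors is usually switched on outside its normal place, and the factor in question defines the subtype. TAL1 and LYL1 are related basic helix-loop-helix proteins that bind E-box sites in DNA as dimers with E proteins. LMO1 and LMO2 do not bind DNA themselves; their LIM domains join TAL1 or LYL1 to LDB1 and GATA factors in one complex, which drives blood stem cell and red cell genes in normal marrow. TLX1 and TLX3 are homeobox factors of a separate T-ALL subtype, MEF2C marks an immature one together with LMO2 and LYL1, and MYB is a regulator of blood progenitors and a partner of TAL1 at its target genes.

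Values are FPKM, fragments scaled to gene length and library total. No counts were used here and the sequencing depth is unknown. FPKM summed to 698435 to 869059 in a library. The 7SL RNA genes took 2.25% to 10.1% of it, the most in untreated Molt-4 replicate 3. Untreated Jurkat replicate 3 differed more from the other libraries of its group (SD of log2 ratios 0.332 and 0.337) than any other pair within a group did (0.233 to 0.269). The 7 T-lineage markers in the table, CD3D, CD3E, CD3G, CD247, CD7, LCK and BCL11B, summed to 1121 to 1183 FPKM in treated and 1960 to 2008 FPKM in untreated Jurkat. Their sum was 672 to 702 FPKM in treated and 816 to 896 FPKM in untreated Molt-4. The single markers did not all follow the sums: BCL11B rose in both lines (0.41 in Jurkat and 0.35 in Molt-4 on the log2 scale), and CD7 (0.72) and CD247 (0.29) rose in Molt-4, while the other 4 fell there and all but BCL11B fell in Jurkat. In bulk RNA, fewer cells of a type and less RNA per cell cannot be told apart. Levels below are means ± SD over 3 libraries. Changes are differences of log2(FPKM + 1) ± SE from 1 limma fit over all 12 libraries, which understate the change of low genes. A gene is referred to as called at a two-sided Benjamini-Hochberg adjusted p under 0.05 over the 13840 genes tested. Nothing in the labels says that replicates were separate cultures, so p-values measure the spread between these libraries.

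The sequence just before the RefSeq start of 4 of the genes is shown because these genes carry the contrasts described below: TAL1 and LYL1 as relatives with opposite levels in the lines, LMO1 as the gene that fell in Jurkat, and MEF2C as a gene that rose in both lines. Each line gives 250 bases, 5′ to 3′ on the strand of the gene, from RefSeq on GRCh38.p14. Capitals mark the E-box CANNTG and the GATA motif GATAA on either strand, which are the sites of basic helix-loop-helix and GATA factors. These are annotated starts, and the starts used in these cells were not analysed here.
TAL1 (chr1:47232336-47232585, strand -): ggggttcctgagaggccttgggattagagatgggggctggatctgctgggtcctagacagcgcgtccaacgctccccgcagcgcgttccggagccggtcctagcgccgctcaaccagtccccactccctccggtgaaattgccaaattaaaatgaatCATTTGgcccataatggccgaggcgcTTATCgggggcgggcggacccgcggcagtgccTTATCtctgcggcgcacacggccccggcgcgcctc
LYL1 (chr19:13102859-13103108, strand -): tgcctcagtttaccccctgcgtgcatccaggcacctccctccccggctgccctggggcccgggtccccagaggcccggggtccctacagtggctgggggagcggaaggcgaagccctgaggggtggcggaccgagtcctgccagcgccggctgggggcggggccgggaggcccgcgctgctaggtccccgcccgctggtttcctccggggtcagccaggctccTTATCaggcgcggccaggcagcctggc
LMO1 (chr11:8268788-8269037, strand -): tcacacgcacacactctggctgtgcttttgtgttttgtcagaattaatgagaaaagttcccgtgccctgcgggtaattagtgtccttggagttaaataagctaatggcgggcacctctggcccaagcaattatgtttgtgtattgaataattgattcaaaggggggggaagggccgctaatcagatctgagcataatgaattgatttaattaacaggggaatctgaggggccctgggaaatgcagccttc
MEF2C (chr5:88883185-88883434, strand -): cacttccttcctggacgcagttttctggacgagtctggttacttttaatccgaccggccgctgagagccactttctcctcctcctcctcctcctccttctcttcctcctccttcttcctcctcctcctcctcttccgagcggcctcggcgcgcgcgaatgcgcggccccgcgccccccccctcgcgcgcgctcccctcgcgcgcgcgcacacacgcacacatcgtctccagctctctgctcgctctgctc

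The TAL1 window held 1 E-box and 2 GATA motifs, that of LYL1 held 0 and 1, and those of LMO1 and MEF2C held 0 of either. Over 35116 RefSeq windows of the same length, 61.8% held an E-box and 20.4% a GATA motif. The MYB motif AACNG was found once in the LYL1, LMO1 and MEF2C windows each and not in that of TAL1, against 70.6% of all windows with at least 1. Of these motifs, 0 overlapped another within the 4 windows. Among the 4 windows shown, base composition set LMO1 apart: its window had 5 CpG pairs and 45.6% G and C. The windows of TAL1, LYL1 and MEF2C had 24, 19 and 28 CpG pairs and 64.8%, 75.2% and 66.0% G and C, and the medians of all windows were 11 CpG pairs and 58.0%. Of the members' windows not shown, that of TLX3 was also below both medians (10 CpG pairs and 48.8%), and those of LDB1, TLX1 and MYB were not. These letters describe the reference genome and were not read from the lines.

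TAL1 and LYL1, the basic helix-loop-helix pair, had opposite levels in the lines. TAL1 was the higher of the pair in Jurkat and LYL1 in Molt-4, and chidamide did not change that order. TAL1 was at 91.37, 105.82 and 87.16 FPKM in treated Jurkat and at 72.54, 74.42 and 71.90 FPKM in untreated Jurkat. All 3 treated libraries were above all 3 untreated ones, but the change of 0.37 ± 0.18 was not called (adjusted p = 0.107). In Molt-4, TAL1 was at 26.48, 20.63 and 20.72 FPKM with chidamide and at 35.77, 20.27 and 19.68 FPKM without. The groups overlapped, and replicate 1 was the highest library of both. The Molt-4 change was -0.11 ± 0.18 (adjusted p = 0.632). Leaving out that one untreated library changed both results. Without untreated Molt-4 replicate 1 the Molt-4 change turned to 0.16 ± 0.11 (adjusted p = 0.233), and the Jurkat change of 0.37 was called with an SE of 0.098 (adjusted p = 0.00772). It was called in a fit of the Jurkat libraries alone as well (adjusted p = 0.0104) and under quantile normalization (0.52, adjusted p = 0.028), in a range of 0.00772 to 0.275 over all alternatives.

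LYL1 was at 1.24, 1.73 and 0.94 FPKM in treated Jurkat and at 0.81, 0.46 and 0.72 FPKM in untreated Jurkat. The groups did not overlap, and the change of 0.46 ± 0.12 was called (adjusted p = 0.00678), at 0.87 with a pseudocount of 0.1, though under quantile normalization it turned to -0.10 (adjusted p = 0.503). Both Jurkat groups stayed far below Molt-4. There LYL1 was at 56.63, 59.99 and 58.58 FPKM with chidamide and at 60.94, 53.12 and 55.29 FPKM without, which overlap (0.05 ± 0.12, adjusted p = 0.748). Within a library, TAL1 exceeded LYL1 by 61.2 to 92.7 times in treated and by 89.6 to 162 times in untreated Jurkat. LYL1 exceeded TAL1 by 2.14 to 2.91 times in treated and by 1.70 to 2.81 times in untreated Molt-4. FPKM is per length, so these ratios compare levels between genes.

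**Figure D1:**
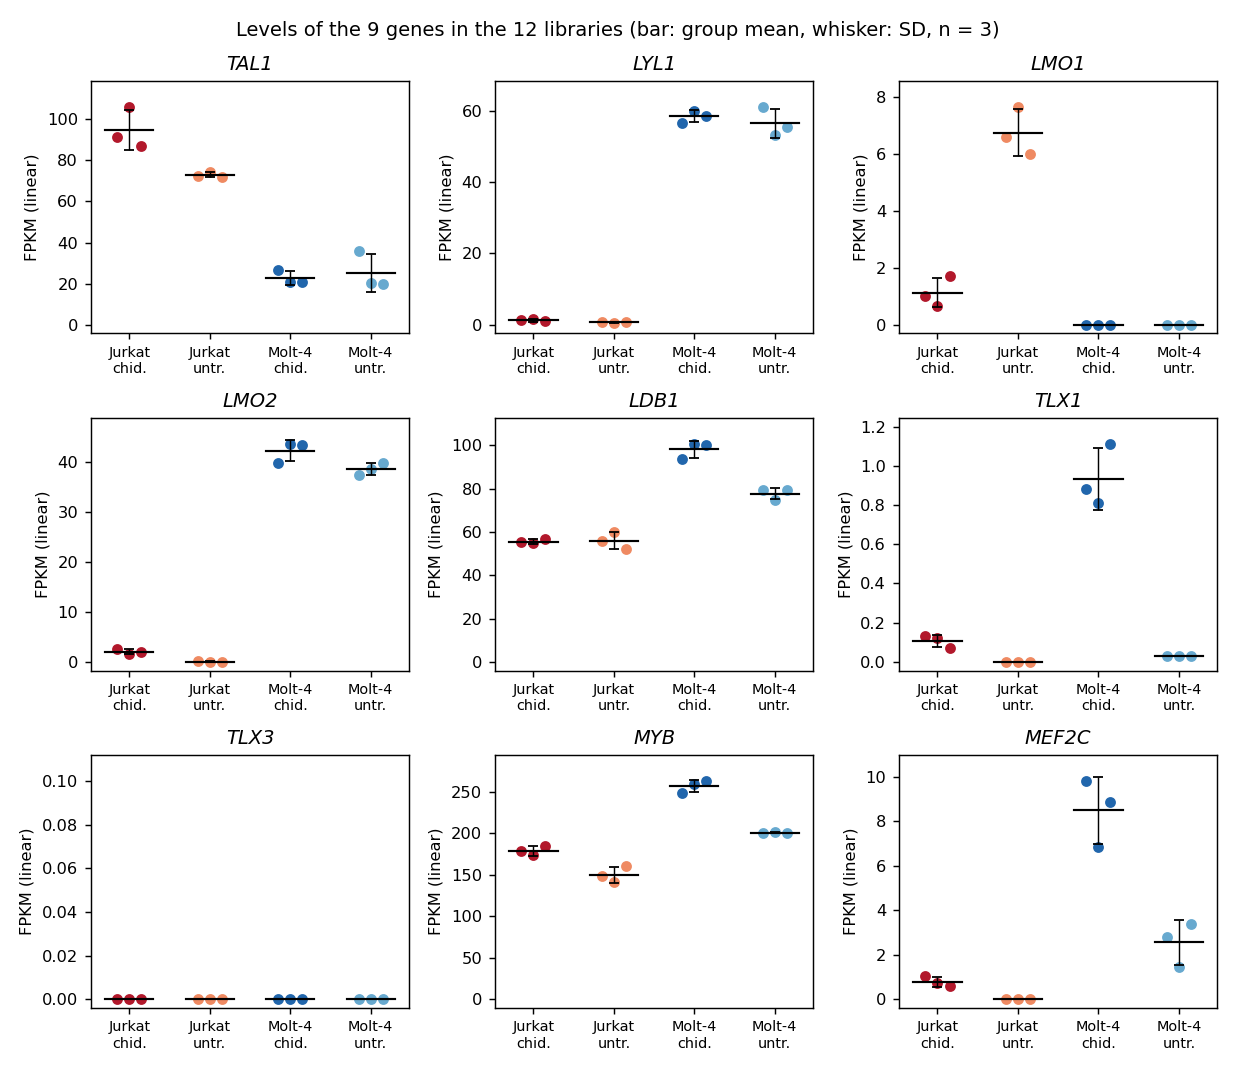
FPKM of the 9 genes on linear axes in each of the 12 libraries, 3 per group, with the group mean as a bar and the SD as a whisker. LYL1 and LMO2 are near 0 in Jurkat and above 37 FPKM in every Molt-4 library, LMO1 is listed at 0 in every Molt-4 library, and TLX3 is listed at 0 in all 12.

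The LIM-only genes LMO1 and LMO2 moved in opposite directions in Jurkat. LMO1 was at 1.02, 0.67 and 1.70 FPKM in treated Jurkat and at 6.57, 7.63 and 6.0 FPKM in untreated Jurkat. Every treated library was below every untreated one. LMO1 fell to 1.13 ± 0.524 FPKM with chidamide, against 6.73 ± 0.827 FPKM untreated (log2 change -1.88 ± 0.15, adjusted p = 5.82e-07). LMO2 was at 2.54, 1.56 and 2.01 FPKM in treated Jurkat and at 0.12, 0 and 0.04 FPKM in untreated Jurkat. Its groups were separate in the other direction. LMO2 rose to 2.04 ± 0.491 FPKM, against 0.0533 ± 0.0611 FPKM untreated (log2 change 1.52 ± 0.11, adjusted p = 2.95e-07), or by 3.85 on the log2 scale with a pseudocount of 0.1. With chidamide LMO2 was therefore above LMO1 in 3 of 3 Jurkat libraries, by 1.18 to 2.49 times, whereas LMO1 was above LMO2 in 3 of 3 untreated Jurkat libraries. The highest treated LMO2 level in Jurkat, 2.54 FPKM, was still below the lowest Molt-4 level, 37.41 FPKM.

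In Molt-4 the pair looked different. LMO1 was listed at 0 in all 6 libraries. LMO2 was at 39.75, 43.50 and 43.41 FPKM in treated and at 37.41, 38.54 and 39.71 FPKM in untreated Molt-4. The lowest treated library, at 39.75 FPKM, was just above the highest untreated one, and the change of 0.13 ± 0.11 was not called (adjusted p = 0.341). LDB1 encodes the adaptor shared by LMO1 and LMO2. It was at 55.30, 54.76 and 56.74 FPKM in treated Jurkat and at 56.06, 59.97 and 51.93 FPKM in untreated Jurkat, where the treated values lay inside the untreated range (log2 change -0.01 ± 0.058, adjusted p = 0.936). In Molt-4 it was at 93.80, 100.51 and 100.04 FPKM with chidamide and at 79.28, 74.61 and 79.18 FPKM without. The Molt-4 groups did not overlap, and LDB1 rose by 0.33 ± 0.058 on the log2 scale (adjusted p = 0.000363). Set against its LMO partner by level, LDB1 exceeded LMO2 by 2.30 to 2.36 times in treated and by 1.94 to 2.12 times in untreated Molt-4.

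**Figure D2:**
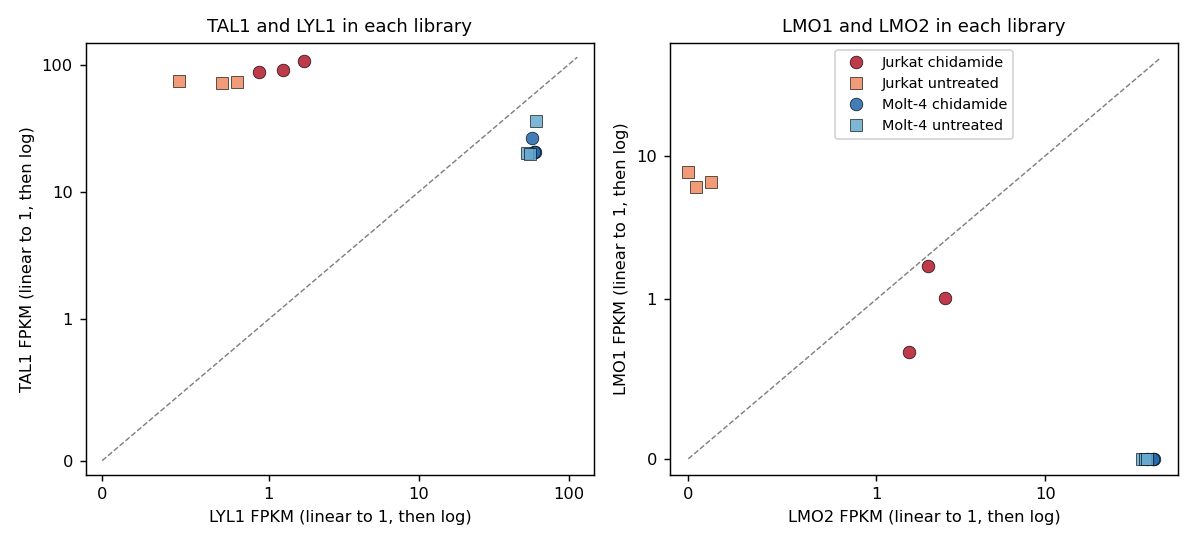
TAL1 against LYL1 (left) and LMO1 against LMO2 (right) in each library, in FPKM on axes that are linear to 1 and logarithmic above; the dashed line marks equal levels. All 6 Jurkat libraries lie above the line for TAL1 and LYL1 and all 6 Molt-4 libraries below it. The 3 treated Jurkat libraries lie below the line for LMO1 and LMO2 and the 3 untreated ones above it.

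MYB was the highest of the 9 genes in every group and rose in both lines. It was at 178.51, 173.40 and 184.92 FPKM in treated Jurkat and at 148.70, 140.79 and 160.46 FPKM in untreated Jurkat. The groups did not overlap, and the change was 0.25 ± 0.051 (adjusted p = 0.00109), or 0.38 under quantile normalization. In Molt-4 it was at 248.51, 259.42 and 262.61 FPKM with chidamide and at 200.26, 201.10 and 199.95 FPKM without. The untreated Molt-4 libraries spanned 199.95 to 201.10 FPKM, and the change was 0.36 ± 0.051 (adjusted p = 7.89e-05). The rise was thus 1.19 times in Jurkat and 1.28 times in Molt-4 by means. MEF2C, a MADS-box factor that binds class II deacetylases, was low and rose in both lines. It was at 1.03, 0.74 and 0.58 FPKM in treated Jurkat and at 0, 0.02 and 0 FPKM in untreated Jurkat. The change there was 0.82 ± 0.19 (adjusted p = 0.00341), 3.02 with a pseudocount of 0.1, and was no longer called under quantile normalization (0.50, adjusted p = 0.0509). In Molt-4, MEF2C was at 9.80, 6.85 and 8.86 FPKM with chidamide and at 2.81, 1.44 and 3.40 FPKM without. Every treated Molt-4 library was above every untreated one (3.33 times by means, log2 change 1.45 ± 0.19, adjusted p = 4.41e-05).

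The homeobox genes TLX1 and TLX3 were silent or nearly so. TLX3 was listed at 0 in all 12 libraries. TLX1 was at 0.13, 0.12 and 0.07 FPKM in treated Jurkat and listed at 0 in the 3 untreated Jurkat libraries. In Molt-4 it was at 0.88, 0.81 and 1.11 FPKM with chidamide and at 0.03 FPKM in each of the 3 untreated libraries. Treated libraries were above untreated ones in both lines, at levels that reached 1 FPKM in only 1 library. TLX1 did not pass the filter of 1 FPKM in at least 3 libraries. In a fit of 20104 genes with no filter its change was 0.15 ± 0.051 in Jurkat (adjusted p = 0.0391) and 0.91 ± 0.051 in Molt-4 (adjusted p = 1.84e-07). The exact two-sided permutation test of 3 against 3 libraries gave 0.1 in both lines, the smallest p it can give.

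Of the 7 genes that passed the filter, 4 were called higher and 1 lower with chidamide in Jurkat, where 56.3% of all 13840 genes tested were called, 30.9% higher and 25.4% lower. In Molt-4, 3 were called higher and 0 lower, against 60.0% of all genes called, 35.4% higher and 24.6% lower. Under quantile normalization the background in Molt-4 was 25.6% higher and 36.4% lower, with the median over all genes at -0.10, against 0.08 with the values as deposited. The shares of members called, 5 of 7 in Jurkat and 3 of 7 in Molt-4, were not far from these backgrounds and are not a result about the set. The median change of the 7 was 0.37 in Jurkat and 0.13 in Molt-4, against 0.04 and 0.08 over all genes tested. MYB and MEF2C were called in both lines, in the same direction. LYL1 and MEF2C passed the filter only through Molt-4, with Jurkat levels of 0.46 to 1.73 FPKM and 0 to 1.03 FPKM. Both of these Jurkat calls were lost under quantile normalization (adjusted p = 0.503 and 0.0509). LMO1 passed the filter only through Jurkat and was listed at 0 in Molt-4.

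The difference of the responses (Molt-4 minus Jurkat) was tested directly and was called for 3 of the 7 genes, against 31.9% of all genes, 19.8% higher and 12.1% lower. It was 1.88 ± 0.21 for LMO1 (adjusted p = 3.52e-05), which is the fall in Jurkat set against a gene listed at 0 in Molt-4. For LMO2 it was -1.39 ± 0.16 (adjusted p = 3.68e-05), that is, a larger rise in Jurkat, on a log2(FPKM + 1) scale. Its size depended on the processing, at -3.72 with a pseudocount of 0.1 and -0.88 under quantile normalization. For LDB1 it was 0.34 ± 0.082 (adjusted p = 0.0078), with the rise in Molt-4. The responses of MYB and TAL1 were not shown to differ between lines (0.10 ± 0.072, adjusted p = 0.322, and -0.48 ± 0.26, adjusted p = 0.188). For LYL1 the difference was -0.41 ± 0.17 (adjusted p = 0.0939), called without treated Jurkat replicate 3 (adjusted p = 0.0296) and of opposite sign under quantile normalization (0.19). For MEF2C it was 0.63 ± 0.28 (adjusted p = 0.103), called without untreated Molt-4 replicate 3 (0.81, adjusted p = 0.0373), and -1.26 with a pseudocount of 0.1 (adjusted p = 0.0446). The sign for MEF2C thus depends on how a level near 0 in untreated Jurkat is treated. The background of this comparison also shifted with the scaling, to 16.4% higher and 19.3% lower under quantile normalization, with the median over all genes at -0.07, against 0.04, and 16.2% higher and 15.5% lower with equal totals without 7SL RNA.

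**Figure D3:**
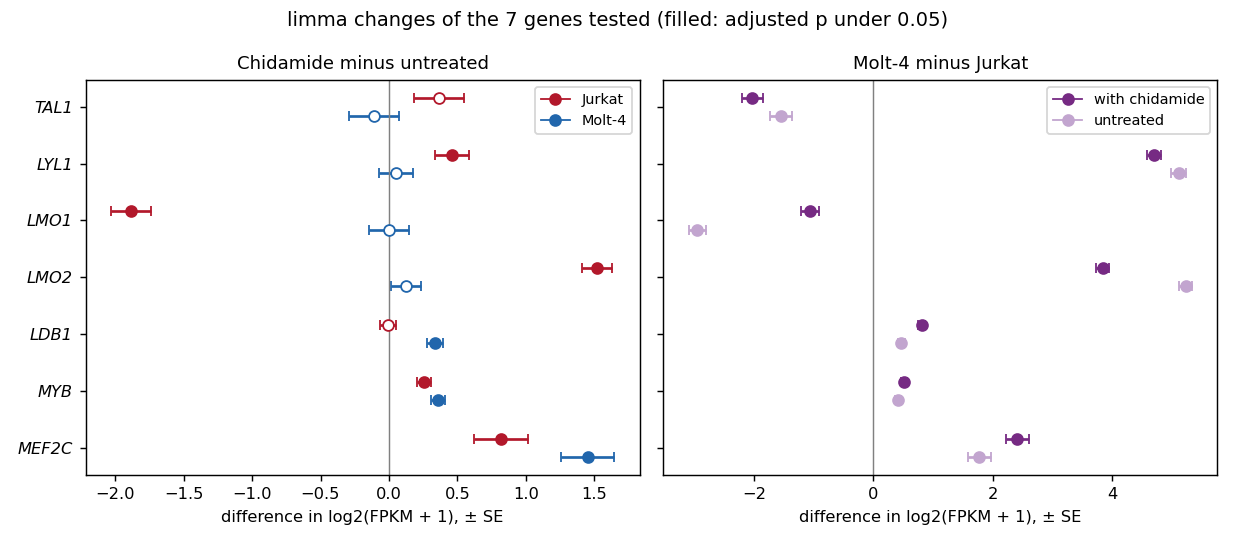
Differences in log2(FPKM + 1) ± SE from the limma fit for the 7 genes tested, between chidamide and untreated libraries in each line (left) and between Molt-4 and Jurkat with and without chidamide (right); filled points have an adjusted p under 0.05. LMO1 at -1.88 and LMO2 at 1.52 stand on opposite sides in Jurkat, with the point of LYL1 at 0.46 moving to -0.10 under quantile normalization. The untreated contrast between lines is larger in size than either treatment change for all 7 genes, narrowly so for MYB (0.42 against 0.36 in Molt-4). With chidamide LMO1 is the exception, at -1.06 between lines.

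Between lines, all 7 genes tested were called, with and without chidamide. Treated Molt-4 against treated Jurkat called 69.2% of all genes, 31.7% higher and 37.5% lower, and untreated against untreated 65.3%, 27.9% higher and 37.5% lower. With equal totals without 7SL RNA the median over all genes between treated lines was -0.20, against -0.07 as deposited. TAL1 and LMO1 were lower in Molt-4 and LYL1, LMO2, LDB1, MYB and MEF2C higher. LYL1 averaged 56.5 ± 4.04 FPKM in untreated Molt-4 and 0.663 ± 0.182 FPKM in untreated Jurkat, which is 85.1 times (log2 difference 5.11 ± 0.12, adjusted p = 4.37e-12). LMO2 averaged 38.6 ± 1.15 FPKM in untreated Molt-4 and 0.0533 ± 0.0611 FPKM in untreated Jurkat (5.23 ± 0.11, adjusted p = 1.48e-12). TAL1 averaged 25.2 ± 9.12 FPKM in untreated Molt-4 and 73.0 ± 1.31 FPKM in untreated Jurkat (-1.55 ± 0.18, adjusted p = 1.08e-05). With chidamide the gap of LMO2 was 3.84 ± 0.11 and that of LMO1 -1.06 ± 0.15, against -2.95 ± 0.15 untreated. The gap of MEF2C was 2.41 ± 0.19 with chidamide and 1.78 ± 0.19 untreated. Gaps that involve levels near 0 were wider with a pseudocount of 0.1, at 8.05 for LMO2, -6.09 for LMO1 and 4.56 for MEF2C in untreated lines and -3.53 for LMO1 with chidamide. In order of level, TAL1 ran from treated Jurkat down through untreated Jurkat to Molt-4, whose groups overlapped. LYL1 ran from Molt-4, whose groups overlapped, to treated and then untreated Jurkat. For LMO2, MYB and MEF2C the order was treated Molt-4, untreated Molt-4, treated Jurkat and untreated Jurkat, with no overlap between neighbours. LDB1 ran from treated to untreated Molt-4 and then Jurkat, whose groups overlapped.

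Other genes of the pathway were taken as lists chosen by known role, which overlap each other and hold some of the 9 genes. Among partners of the TAL1 complex and LDB1 cofactors, 6 of the 15 tested rose and 3 fell in Jurkat, and 5 rose and 6 fell in Molt-4. Of all genes tested, 30.9% were called higher and 25.4% lower in Jurkat, and 35.4% higher and 24.6% lower in Molt-4, and the counts of every list stand against these shares. The medians were 0.23 and 0.15, against 0.04 and 0.08 over all genes, and the Jurkat median was 0.02 under quantile normalization. GATA3, the T-lineage GATA factor in the complex, averaged 148 ± 14.6 FPKM in treated and 33.5 ± 3.91 FPKM in untreated Jurkat (2.11 ± 0.13, adjusted p = 7e-08). In Molt-4 it averaged 169 ± 16.8 FPKM with chidamide and 23.6 ± 4.55 FPKM without (2.80 ± 0.13, adjusted p = 4.14e-09). CBFA2T3, the corepressor ETO2 of the complex, changed by -1.15 ± 0.11 in Jurkat and -0.64 ± 0.11 in Molt-4 (adjusted p = 2.05e-06 and 0.000231). Of the E protein genes, which encode dimer partners of TAL1 and LYL1, TCF3 and TCF12 fell in both lines and TCF4 did not. TCF3 fell by 0.58 in Jurkat and 0.36 in Molt-4, and TCF12 by 0.24 and 0.25, with adjusted p from 8.79e-05 up to 0.00245. The TCF4 changes were 0.44 ± 0.19 in Jurkat (adjusted p = 0.0744) and 0.15 ± 0.19 in Molt-4 (adjusted p = 0.526). In some alternatives the TCF4 rise in Jurkat was called (adjusted p down to 0.0192). The TCF12 call in Jurkat was lost under quantile normalization (adjusted p = 0.133). GATA1, the GATA factor of red cells, rose in Molt-4 (0.85 ± 0.10, adjusted p = 1.87e-05), where it was at 151 to 163 FPKM with chidamide and 85.5 to 89.1 FPKM without. In Jurkat GATA1 was below 1 FPKM in all libraries. LMO4, another LIM-only gene, rose by 0.76 ± 0.14 in Molt-4 (adjusted p = 0.000549). Its change of 0.37 ± 0.14 in Jurkat (adjusted p = 0.0411) lost the call in 12 of the alternatives, in a range up to 0.164.

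Of the genes described as activated by the TAL1 complex in T-ALL, 7 of 10 tested rose and 2 fell in Jurkat, where 30.9% of all genes were called higher and 25.4% lower. In Molt-4, 7 rose and 0 fell (1 under quantile normalization), against 35.4% and 24.6% of all genes. The medians were 0.53 and 0.87, against 0.04 and 0.08 over all genes. The list holds MYB and GATA3. ARID5B, a TAL1 target that promotes T-ALL growth, averaged 39.5 ± 2.03 FPKM in treated and 10.8 ± 1.34 FPKM in untreated Jurkat (1.79 ± 0.089, adjusted p = 1.21e-08). In Molt-4 it averaged 24.9 ± 1.05 FPKM with chidamide and 3.72 ± 0.272 FPKM without (2.46 ± 0.089, adjusted p = 6.5e-10). The stem cell factor receptor gene KIT rose by 1.81 ± 0.13 in Jurkat and by 1.99 ± 0.13 in Molt-4, and the pseudokinase gene TRIB2 by 1.03 ± 0.093 and 1.81 ± 0.093 (adjusted p between 1.08e-08 and 1.83e-06). ALDH1A2, a retinaldehyde dehydrogenase gene that TAL1 and LMO proteins activate, was called lower in Jurkat. The ALDH1A2 change of -0.26 ± 0.092 (adjusted p = 0.0278) lost the call in 5 alternatives (adjusted p up to 0.231).

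Of the red cell genes that TAL1 complexes bind in erythroid precursors, 6 of 8 rose and 0 fell in Molt-4, against 35.4% and 24.6% of all genes (5 rose under quantile normalization). In Jurkat 2 rose and 0 fell, against 30.9% and 25.4% (1 fell under quantile normalization). Levels in Molt-4 differed widely within the list: EPB42, a red cell membrane skeleton gene, averaged 1.78 FPKM with chidamide and 0.54 FPKM without, and HBA1 2072 FPKM with and 1472 FPKM without. HBA1 was not among the 6 called in Molt-4 (0.49 ± 0.46, adjusted p = 0.372), with an SE that the fit shares with Jurkat. It was called in a fit of Molt-4 alone and without treated Jurkat replicate 1 (adjusted p down to 4.27e-05). The medians were 1.58 in Molt-4 and 0.02 in Jurkat, where it was -0.03 under quantile normalization. SLC4A1, the red cell anion exchanger gene, was at 33.44, 32.57 and 31.72 FPKM in treated and at 0.66, 1.53 and 1.47 FPKM in untreated Molt-4 (3.94 ± 0.14, adjusted p = 5.03e-10). ALAS2, the first enzyme of haem synthesis in red cells, was at 123.01, 119.10 and 110.68 FPKM in treated and at 16.43, 11.39 and 12.13 FPKM in untreated Molt-4 (3.07 ± 0.12, adjusted p = 9.61e-10). The Jurkat calls were the globin genes HBA1 and HBB, which were uneven: HBB was at 0, 18.16 and 20.20 FPKM in treated and at 0, 0.28 and 0 FPKM in untreated Jurkat. Its Jurkat call was lost without treated Jurkat replicate 2 or 3 and in a fit of Jurkat alone (adjusted p up to 0.110), and its Molt-4 call with a pseudocount of 0.1 (adjusted p = 0.0928). The HBB change in Molt-4 itself stayed between 2.68 and 3.23 over all alternatives. Markers of other blood lineages were measured beside these. The 6 erythroid markers summed to 7.03 to 80.0 FPKM in treated and 0.89 to 2.36 FPKM in untreated Jurkat. In Molt-4 they summed to 3002 to 3060 FPKM with chidamide and 2046 to 2141 FPKM without. The 5 myeloid markers summed to 68.4 to 68.9 FPKM in treated and 0.75 to 1.89 FPKM in untreated Molt-4, of which the lysozyme gene LYZ made 62.1 to 63.9 FPKM in treated and 0.39 to 0.86 FPKM in untreated Molt-4. They stayed at 0.77 to 3.25 FPKM in treated and 0.09 to 1.05 FPKM in untreated Jurkat. The 5 B-cell markers summed to 18.6 to 23.4 FPKM in treated and 3.65 to 5.72 FPKM in untreated Molt-4, with MS4A1 at 0. In Jurkat they summed to 11.8 to 12.8 FPKM with chidamide and 24.9 to 29.8 FPKM without. The part of these markers in the results for the 9 genes was not tested.

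**Figure D4:**
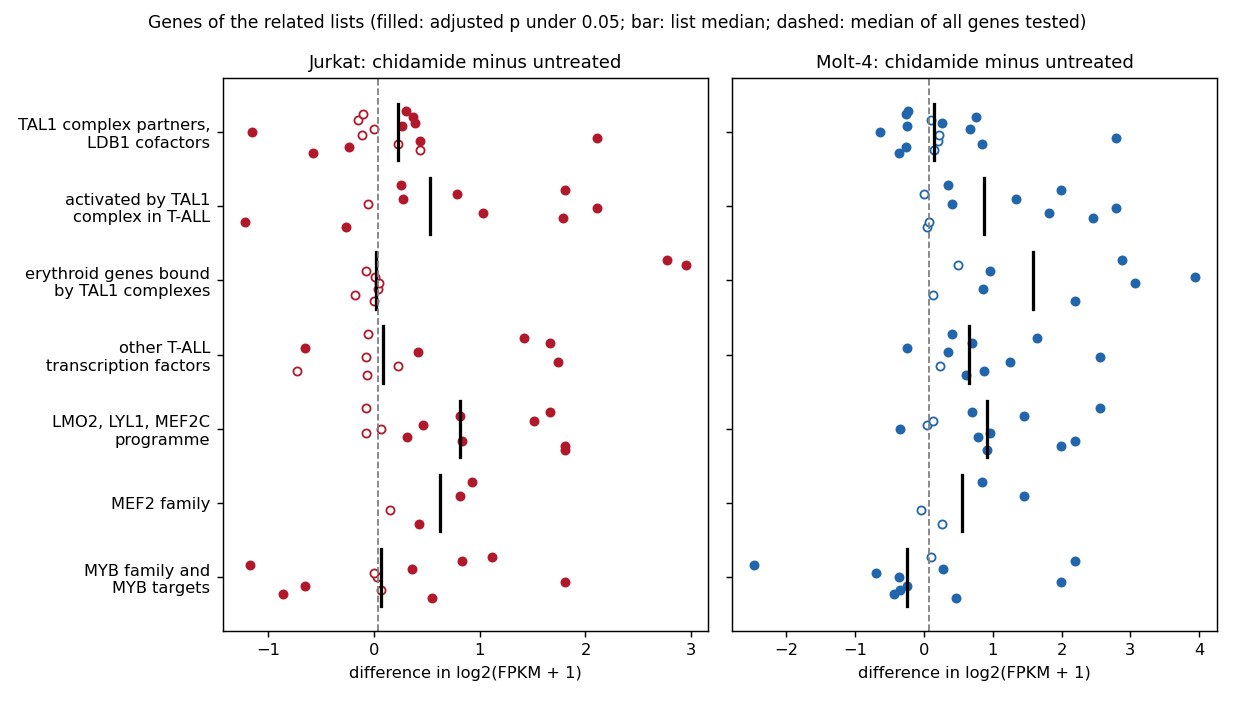
Chidamide minus untreated differences in log2(FPKM + 1) in Jurkat (left) and Molt-4 (right) for every tested gene of 7 lists; filled points have an adjusted p under 0.05, bars are list medians and the dashed line is the median of all 13840 genes. The erythroid list has a median of 0.02 in Jurkat (-0.03 under quantile normalization) and 1.58 in Molt-4, and the list of other T-ALL factors 0.08 in Jurkat (-0.24 under quantile normalization) and 0.65 in Molt-4 (0.33 under quantile normalization).

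Transcription factor genes activated in other T-ALL subtypes were taken as 19 symbols, of which 10 passed the filter. In Jurkat 4 rose and 1 fell, and under quantile normalization 4 rose and 4 fell with the median at -0.24, against 0.08. In Molt-4, 8 rose and 1 fell with the median at 0.65 (5 and 2 with the median at 0.33 under quantile normalization). Of all genes, 30.9% rose and 25.4% fell in Jurkat, and 35.4% rose and 24.6% fell in Molt-4. The member that fell in both lines was MYC, by 0.65 in Jurkat and 0.24 in Molt-4 on the log2 scale, the Molt-4 call being lost without untreated Molt-4 replicate 1 or 2 (adjusted p up to 0.0636). SPI1, the myeloid and early T-cell factor PU.1, was at 11.40, 12.02 and 13.62 FPKM in treated and at 1.41, 1.06 and 1.32 FPKM in untreated Molt-4 (2.56 ± 0.097, adjusted p = 9.56e-10). It was listed at 0 in treated Jurkat. MYCN rose by 1.67 ± 0.12 in Jurkat and 0.69 ± 0.12 in Molt-4, where the call was lost under quantile normalization (adjusted p = 0.986). ETS1 was at 473 ± 4.29 FPKM in treated and 176 ± 16.2 FPKM in untreated Jurkat, and at 202 ± 7.27 FPKM in treated and 64.2 ± 3.39 FPKM in untreated Molt-4. Of the NKX2 and HOXA genes of the list, HOXA5 passed the filter, and OLIG2 was listed at 0 in all libraries.

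The list built around LMO2, LYL1 and MEF2C in immature T-ALL had 8 of 11 members higher and 0 lower in Jurkat, and 8 higher and 1 lower in Molt-4. Over all genes the shares were 30.9% and 25.4% in Jurkat and 35.4% and 24.6% in Molt-4. Under quantile normalization the Jurkat counts were 5 and 1 and the Jurkat median 0.23. The medians as deposited were 0.82 and 0.92, against 0.04 and 0.08 over all genes, and the 3 named genes are part of them. HHEX, a homeobox gene that LMO2 activates in T-cell progenitors of mice, was at 2.92, 3.61 and 2.70 FPKM in treated and at 0, 0.11 and 0.42 FPKM in untreated Jurkat (1.802 ± 0.12, adjusted p = 1.77e-07). In Molt-4 it was at 58.82, 58.00 and 58.39 FPKM with chidamide and at 31.06, 29.01 and 30.86 FPKM without (0.92 ± 0.12, adjusted p = 4.08e-05), a call lost with a pseudocount of 0.1 (adjusted p = 0.0725). The size of the Molt-4 change stayed between 0.87 and 0.94 over all alternatives. In fits over all 12 libraries its SE is shared with Jurkat, where untreated HHEX was near 0. CD34, the progenitor surface marker, rose by 0.84 ± 0.086 in Jurkat and 2.20 ± 0.086 in Molt-4 (adjusted p = 5.35e-06 and 1.15e-09). The member that fell in Molt-4 was the survival gene BCL2, at 4.18, 4.0 and 4.11 FPKM with chidamide and 5.27, 5.55 and 5.62 FPKM without. The summed level of the list was 25.4 to 27.7 FPKM in treated and 8.23 to 10.7 FPKM in untreated Jurkat, against 446 to 454 FPKM in treated and 256 to 274 FPKM in untreated Molt-4.

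Of the 4 MEF2 genes tested, MEF2A, MEF2C and MEF2D rose in Jurkat (MEF2A and MEF2D under quantile normalization), and MEF2C and MEF2D rose in Molt-4. Of all genes, 30.9% rose and 25.4% fell in Jurkat, and 35.4% rose and 24.6% fell in Molt-4. MEF2B was not called in Jurkat (0.15, adjusted p = 0.482) or Molt-4 (-0.05, adjusted p = 0.828). Under quantile normalization MEF2B was called lower in Molt-4 (adjusted p = 0.000744). MEF2D rose by 0.93 ± 0.081 in Jurkat and 0.84 ± 0.081 in Molt-4 (adjusted p = 1.41e-06 and 2.7e-06). The call of MEF2A in Jurkat (0.43 ± 0.13, adjusted p = 0.0123) was lost without untreated Jurkat replicate 1 (adjusted p = 0.0569). The MYB relatives MYBL1 and MYBL2 and genes described as MYB targets went both ways. In Jurkat 5 of 11 rose and 3 fell, and in Molt-4 4 rose and 6 fell, against 30.9% and 25.4% of all genes in Jurkat and 35.4% and 24.6% in Molt-4. The medians were 0.06 and -0.24, against 0.04 and 0.08 over all genes, and the Jurkat median was 0.15 under quantile normalization. MYBL2, the relative tied to the cell cycle, fell by 0.86 in Jurkat and 0.43 in Molt-4 on the log2 scale, while MYBL1 rose by 0.54 and 0.47. The MYBL1 calls were lost under quantile normalization in both lines (adjusted p up to 0.668). The adenosine deaminase gene ADA was at 392 ± 8.39 FPKM in treated and 884 ± 41.1 FPKM in untreated Jurkat. In Molt-4 ADA was at 104 ± 2.60 FPKM with chidamide and 576 ± 9.04 FPKM without (-2.47 ± 0.044, adjusted p = 3.79e-12). The chemokine receptor gene CXCR4 rose in Jurkat (1.11 ± 0.049, adjusted p = 4.89e-09), and its change in Molt-4 was 0.10 ± 0.049 (adjusted p = 0.104).

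The genes with the most similar pattern were found by the root mean square difference of centred log2(FPKM + 1) values over the 12 libraries, which is 0 for identical patterns. For LMO2 they were C10orf128 (0.27), HHEX (0.38) and PRSS57 (0.39). For LYL1 they were CHCHD5 (0.22), SNCG (0.24) and CPED1 (0.25), and for MEF2C DMD (0.25), LZTFL1 (0.27) and ZNF280A (0.29). For TAL1 they were MYL5 (0.21), LRRIQ1 (0.23) and AIM1 (0.23), and for LMO1 FAM95C (0.26), RGCC (0.26) and DAAM2 (0.29). The nearest to LMO2, C10orf128, was at 3.33, 4.54 and 3.74 FPKM in treated and 0.64, 0.20 and 0.11 FPKM in untreated Jurkat, and between 59.01 and 76.00 FPKM in Molt-4. DMD, the dystrophin gene, rose in both lines as MEF2C did, by 1.02 in Jurkat and 1.19 in Molt-4. The measure is a description of 12 libraries in 4 groups.

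Next to each of the 9 genes on the chromosome, the nearest protein-coding RefSeq genes gave 18 neighbours, of which 14 were tested. In Jurkat 4 rose and 5 fell, and in Molt-4 5 rose and 4 fell. These counts lie near the shares over all genes (30.9% and 25.4% in Jurkat, 35.4% and 24.6% in Molt-4) and are not a result about the neighbours. Beside LMO1, which fell in Jurkat, the kinase gene STK33 rose (0.48 ± 0.17, adjusted p = 0.0348), as it did in Molt-4 (0.53 ± 0.17, adjusted p = 0.0201). Beside LMO2, the F-box gene FBXO3 rose in both lines (0.81 ± 0.17 in Jurkat and 0.58 ± 0.17 in Molt-4) while CAPRIN1 fell in Molt-4 (-0.36 ± 0.055, adjusted p = 0.000129). Beside MYB, HBS1L rose by 1.03 ± 0.051 in Jurkat and 0.44 ± 0.051 in Molt-4. Called lower in both lines were NOLC1 beside LDB1 (-0.95 in Jurkat and -0.78 in Molt-4), TRMT1 beside LYL1 (-0.90 and -0.59) and NPM1 beside TLX3 (-0.74 and -0.52). NFIX beside LYL1 (-0.51) and CETN3 beside MEF2C (-0.28) were called lower in Jurkat. KAZALD1 beside TLX1 rose in Molt-4 (0.96 ± 0.12, adjusted p = 2.7e-05), with a change of -0.03 in Jurkat (adjusted p = 0.858). HPS6, AHI1 and TMEM161B were not called in either line, and RIC3, LBX1 and RANBP17 did not pass the filter. The TAL1 neighbour PDZK1IP1 stayed at or below 0.65 FPKM in all libraries, and STIL, on the other side of TAL1, was at 17.6 to 24.2 FPKM and rose in both lines (0.21 in Jurkat, adjusted p = 0.0371, and 0.22 in Molt-4, adjusted p = 0.0283). Whether the counting used strand is not given in the sources used here, so reads of a gene and of an overlapping antisense gene cannot be told apart. The antisense gene MEF2C-AS1 was at 0 to 0.55 FPKM and TLX1NB, beside TLX1, at 0 to 0.11 FPKM.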

How the data were processed

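Total RNA of Jurkat and Molt-4 cultures was sequenced from libraries made with a TruSeq RNA kit, per the labels' protocols. The authors deposited 1 table of FPKM values per gene symbol for 12 libraries, rounded to 2 decimals. STAR, HTSeq and DESeq2 with the build hg19 are named in the submitters' processing notes, without versions or the step that gave FPKM. No depth and no counting interval can be given.

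Genes at 1 FPKM or more in at least 3 libraries (13840) were transformed as log2(FPKM + 1) and fitted with limma 3.58.1 in R 4.3.3 (1 mean per group, intensity trend, 8 residual degrees of freedom). There were 5 comparisons, each adjusted by Benjamini-Hochberg over all genes. The model was tested on simulated data. Every member is named; from each list up to 4 called genes with the largest treatment change, the 3 nearest patterns for members whose group means span at least 1 on the log2 scale, and chromosome neighbours are named. Other genes named after seeing their values are MYC, BCL2, EPB42, TCF3, TCF4, TCF12, ALDH1A2, HOXA5, OLIG2, MEF2B, MYBL1 and MYBL2. The members and lists were chosen with earlier results of these data known. Of the lists, 3 of the 10 T-lineage markers and a few other symbols were not analysed here. The values of a few list genes are not reported here. Alternatives were a pseudocount of 0.1, no filter, 5 FPKM in 3 libraries, median-of-ratios and quantile scaling, the groups compared alone, robust empirical Bayes, a replicate block and each library left out. Equal totals without 7SL RNA was added after seeing the data. Promoter windows are from RefSeq, matched by symbol for 8 of the 9 genes.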

Additional observations from a re-analysis of the deposited data

Results flagged for a closer look

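In the fit with no filter on low values, the difference of the chidamide responses (Molt-4 minus Jurkat) was called for 4 of the 8 members tested. Of all 20104 genes in that fit, 15.5% were called higher and 9.01% lower, so the count is not a result about the set. For LMO1 the difference was 1.88 on the log2(FPKM + 1) scale. LMO1 is listed at 0 in Molt-4, so this value restates the fall in Jurkat and cannot show a different response in Molt-4. For LMO2 the difference was -1.39 and for LDB1 0.34. For TLX1, tested only where low values were kept or rescaled, it was 0.76 in the fit with no filter (adjusted p = 3.36e-05).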

How the results depend on the processing

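Over 21 alternatives and 39 results for single genes, 712 values were compared: 696 kept direction and side of the threshold and 9 changed sign. Of those that kept their sign, 5 gained and 2 lost a call. The values that changed sign include further changes of call. LYL1 in Jurkat lost its call under quantile normalization, and the difference of MEF2C gained one with a pseudocount of 0.1. The number of members called stayed within 1.5 times in every alternative, at 4 to 6 in Jurkat, 3 to 4 in Molt-4, 3 to 4 for the difference, 7 in untreated and 7 to 8 in treated lines. The count of 8 came only where TLX1 was tested too, with 8 members tested. Under quantile normalization the sign changed for LDB1 in Jurkat (0.12), LYL1 in Jurkat (-0.10) and the difference of LYL1 (0.19). It also changed for LDB1 in Jurkat with equal totals without 7SL RNA (0.071), LYL1 in Molt-4 with median-of-ratios scaling (-0.0011) and the difference of MEF2C with a pseudocount of 0.1 (-1.26); the cause was not tested. With 1 library left out, LDB1 in Jurkat ranged from -0.0596 to 0.0424 and TAL1 in Molt-4 from -0.254 to 0.162. The TLX1 call in Jurkat, from the fit with no filter, was lost with equal totals without 7SL RNA (0.21, adjusted p = 0.0946). With the replicate block, 5 members were called in Jurkat, 3 in Molt-4, 3 for the difference and 7 in each contrast of lines. The shares of all genes called with the block were 30.4% higher and 25.1% lower in Jurkat and 35.0% and 24.2% in Molt-4. For the difference they were 19.0% and 11.2%. Between lines they were 27.6% and 37.0% untreated and 31.4% and 37.1% with chidamide. Same-numbered libraries correlated between -0.038 and 0.041 in their deviations from group means, and 1 of 6 treated libraries correlated best with its own number. With 3 libraries per group, these values cannot show whether same-numbered libraries shared a batch. For treated libraries the number also carries the labelled hour. Levels near 0 limit the log2 values of LMO2, MEF2C, LYL1 and TLX1 in Jurkat.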
